A study of Mus musculus with 6 samples.

Results

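Signalling by transforming growth factor beta (TGF-beta) and bone morphogenetic proteins (BMP) was examined in mouse epidermis through 38 genes: 10 secreted ligands of the TGF-beta and BMP families, the protease Bmp1, the activin subunits Inhba and Inhbb, receptors, secreted antagonists, Smad proteins and the Id genes that the pathway controls. The genes were listed by name as parts of the pathway, with earlier results of these data known, and were looked up among 49377 genes with distinct symbols, of which all 38 were found. The tested samples were 3 libraries labelled Rictor -/- (263, 265 and 266), set against 3 libraries labelled Control (261, 262 and 264). All came from separated epidermis of C57BL/6 embryos at E19.5, just before birth, and the only stated difference is the Rictor genotype. The driver of the deletion, and whether each library is 1 animal, were not stated. The p-values therefore reflect how far these libraries spread, part of which may be technical. The series asks how mRNA levels differ between Rictor-deficient and control epidermis.

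Ligands of this family bind pairs of type I and type II receptor kinases, which phosphorylate Smad2 and Smad3 on the TGF-beta and activin branch or Smad1, Smad5 and Smad9 on the BMP branch. The phosphorylated Smads join Smad4 and enter the nucleus, while Smad6 and Smad7 inhibit the receptors. In epidermis TGF-beta restrains keratinocyte proliferation, and BMP signals shape differentiation and hair follicle formation, with antagonists such as Noggin needed for follicles to start. Rictor is a defining subunit of mTOR complex 2, a kinase complex that phosphorylates AKT.

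The deposited values are FPKM, which correct fragment numbers for transcript length and library size, so levels can be compared between genes. Summed FPKM ran from 609375 to 672925 per library. The lowest values above 0, multiplied by exonic length and taken as what 1 fragment gives, put the depth at an estimated 40600000 to 49000000 fragments. The level of Rictor itself was 6.83, 7.04 and 6.86 FPKM for knockout-labelled libraries 263, 265 and 266, compared with 5.63, 6.02 and 4.37 FPKM in controls 261, 262 and 264. It was thus not lower where the label says it is deleted, and since reads from exons that were not deleted still count towards a whole-gene value, it does not check the labels. Every direction below is that of the knockout-labelled libraries relative to control. Keratinocyte markers dominated, with 13 markers summing to 40852 to 42384 FPKM in knockout-labelled and 37563 to 39408 FPKM in control libraries. Endothelial markers summed to at most 2.6 FPKM. In control 264 long genes were low, with Spearman's rho of -0.359 between each gene's deviation from its mean and its exonic length, against 0.173 to 0.263 in the knockout-labelled libraries and -0.00728 and 0.0028 in controls 261 and 262, over 13472 genes, which are not replicates of each other.

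Of the 38 members 32 averaged 1 FPKM or more in one group or both and were tested with limma on log2(FPKM + 1), with p-values adjusted by Benjamini-Hochberg over all 13500 tested genes. Tgfbr2, Inhbb and Smad3 rose and Smad1 and Id2 fell in the knockout-labelled libraries, so 5 of the 32 tested members (15.6%) passed, against 23.5% of all tested genes. Those that rose made up 9.38% of the members, against 7.91% of all genes, and those that fell 6.25%, against 15.6%. The median log2 difference was 0.05 over the tested members and -0.06 over all tested genes. The members' share was below that of the genes at large, so what follows describes single genes. Groups did not overlap in 13 members (40.6%), 8 higher and 5 lower, against 45.8% of all tested genes, 16.6% higher and 29.2% lower. In a bulk sample fewer cells of a type and less RNA per cell cannot be told apart. As deposited, 33.7% of the called genes of the whole table were higher, and after median scaling 49.2% were. The remaining 27 tested members did not pass, with differences between -0.40 and 0.42 and adjusted p-values of at least 0.081. Standard errors ran from 0.05 to 0.19, and 19 of the 27 lay within 0.2 of no difference. One tested member, Bmp6, reached the minimum through the control libraries alone.

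**Figure D1:**
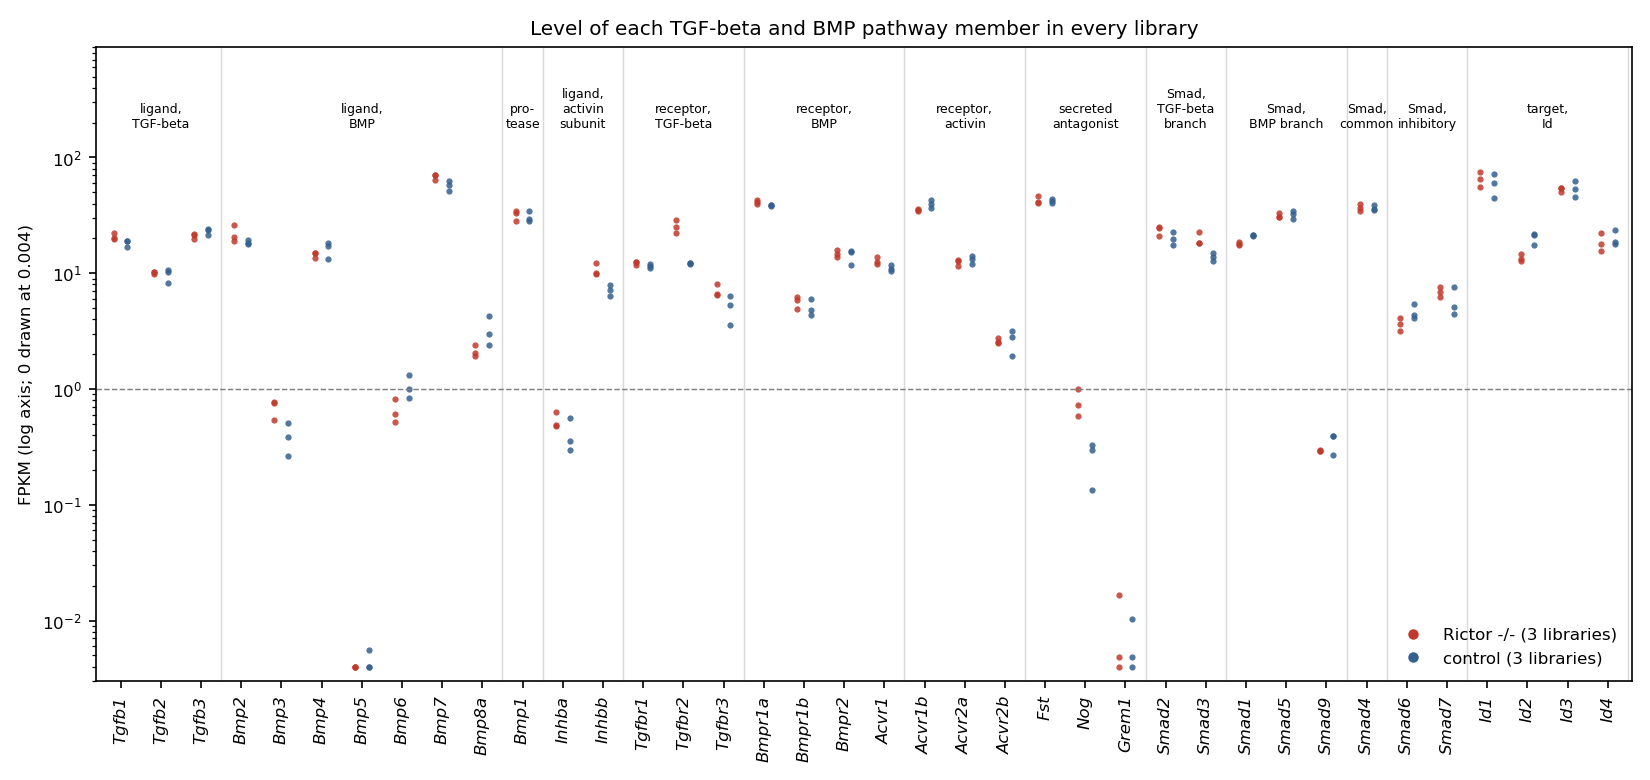
FPKM of each of the 38 members on a log axis, grouped by role, with 1 point per library for Rictor -/- (red, left of each pair) and control (blue, right), values of 0 drawn at 0.004 and a dashed line at 1 FPKM. Bmp7, Id1 and Id3 stand highest, Bmp5 and Grem1 lie at or near 0, and Tgfbr2 is the tested member whose groups are farthest apart.

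The ligands were led by Bmp7, which supplied 56.3% to 65.6% of the summed FPKM of the 7 BMP ligands in every library. Bmp7, a BMP made by epithelia including epidermis, stood at 63.7, 70.1 and 71.1 FPKM for libraries 263, 265 and 266, compared with 62.4, 57.7 and 51.7 FPKM in controls 261, 262 and 264. Its groups did not overlap, but the log2 difference of 0.25 ± 0.09 (SE, n = 3 per group, as for all differences below) missed the threshold by limma (adjusted p = 0.081). It passed after adjustment for length and GC content (0.31, limma adjusted p = 0.0433). Bmp2 and Bmp4, ligands of the follicle and its mesenchyme, averaged 21.9 ± 3.92 and 14.5 ± 0.872 FPKM in knockout-labelled libraries and 18.5 ± 0.897 and 16.2 ± 2.61 FPKM in controls (SD, n = 3 each). Their differences of 0.22 ± 0.12 and -0.13 ± 0.12 were within the spread between libraries by limma (adjusted p = 0.233 and 0.451).

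Lower BMP ligands were Bmp8a, at 2.42, 2.06 and 1.94 FPKM in knockout-labelled libraries and 4.23, 2.42 and 2.99 FPKM in controls, and Bmp6, at 0.607, 0.815 and 0.52 FPKM against 1.31, 0.997 and 0.835 FPKM in controls. Neither passed (-0.40 ± 0.16 and -0.31 ± 0.14, limma adjusted p = 0.118 and 0.154), though both did with array weights (-0.68 and -0.49, 0.00835 and 0.00982). Array weights called 6272 of the 13500 tested genes, against 3169 without them, which bears on every result with array weights below. Bmp8a has a close paralog, Bmp8b, and the authors' handling of reads shared by both was not given in the sources used here. Bmp3, which counteracts other BMPs in bone, stayed under the minimum at 0.535, 0.759 and 0.766 FPKM in knockout-labelled libraries and 0.386, 0.509 and 0.266 FPKM in controls. Bmp5 was listed at 0 in 263, 265 and 266 and in controls 261 and 262.

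The TGF-beta ligands were all present. Tgfb3 and Tgfb1 averaged 21 ± 1.27 and 20.7 ± 1.27 FPKM in knockout-labelled libraries and 23.1 ± 1.29 and 18.2 ± 1.30 FPKM in controls, while Tgfb2 averaged 10.1 ± 0.183 and 9.69 ± 1.29 FPKM (SD, n = 3 each). The libraries of Tgfb1 did not overlap between groups, with 19.7 FPKM in the lowest knockout-labelled library and 19.0 FPKM in the highest control. The differences of 0.18 ± 0.08 for Tgfb1, 0.06 ± 0.10 for Tgfb2 and -0.13 ± 0.07 for Tgfb3 did not pass (limma adjusted p = 0.14, 0.702 and 0.235). Tgfb3 passed with array weights (-0.17, limma adjusted p = 0.0293). The sum of all 3 ligands was 51.9, 51.9 and 51.6 FPKM in 263, 265 and 266 and 53.2, 48.5 and 51.3 FPKM in controls, so the ligand total lay inside the control range. Bmp1, a metalloprotease that processes collagen and frees latent ligands rather than acting as a BMP, was at 31.9 ± 3.35 FPKM in knockout-labelled and 30.8 ± 3.32 FPKM in control libraries (0.05 ± 0.11, limma adjusted p = 0.768).

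Inhbb, which encodes the beta B subunit of activin B, was the ligand gene that rose. It stood at 12.3, 10.1 and 9.83 FPKM for libraries 263, 265 and 266, compared with 7.88, 7.16 and 6.4 FPKM in controls 261, 262 and 264. Every knockout-labelled library lay above every control, and the mean was 1.5-fold higher. The log2 difference was 0.53 ± 0.11 (limma adjusted p = 0.0163), and it stayed past the threshold in all 18 alternatives run, between 0.37 and 0.59. The gene lies on chromosome 1 from 119415465 to 119422248 (GRCm38, GENCODE M21). Inhba, the beta A subunit, was under the minimum at 0.489, 0.477 and 0.632 FPKM in knockout-labelled and 0.354, 0.56 and 0.295 FPKM in control libraries.

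The receptors separated sharply at 1 gene. Tgfbr2, the type II receptor that binds TGF-beta and starts the kinase relay, stood at 25.1, 29.1 and 22.4 FPKM for libraries 263, 265 and 266, compared with 12.3, 12.3 and 12 FPKM in controls 261, 262 and 264. The controls were nearly equal, and the lowest knockout-labelled library lay far above them. The mean was 25.5 ± 3.40 FPKM in knockout-labelled and 12.2 ± 0.164 FPKM in control libraries (SD, n = 3 each), a ratio of 2.09. The log2 difference of 1.0 ± 0.10 passed limma's test (adjusted p = 0.00231), and it passed in all 18 alternatives run, between 0.82 and 1.08.

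Tgfbr1, the type I partner of Tgfbr2, stood at 12.5, 12.4 and 11.8 FPKM in knockout-labelled libraries and 12, 11.1 and 11.5 FPKM in controls (0.08 ± 0.06, limma adjusted p = 0.377). The ratio of Tgfbr2 to Tgfbr1, computed after the values were seen, was 2.01, 2.34 and 1.9 in 263, 265 and 266 and 1.03, 1.1 and 1.05 in the controls. Both receptors thus had nearly equal levels in control epidermis and unequal ones in the knockout-labelled libraries. Tgfbr3, a coreceptor that presents TGF-beta2, was at 6.45, 6.61 and 8.07 FPKM against 5.33, 6.42 and 3.58 FPKM in controls. The lowest knockout-labelled value lay just above the highest control, and the difference of 0.42 ± 0.18 did not pass (limma adjusted p = 0.14). With array weights it did (0.36, limma adjusted p = 0.0267).

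The promoter of Tgfbr2 is printed because this gene had the largest difference among the members. It runs from 250 bases before the RefSeq start to 50 after it (GRCm38.p6, minus strand, chr9:116175314-116175613, written 5′ to 3′ along the gene). Capitals mark CAGAC, the box that Smad3 and Smad4 bind, and GGAGCC or GGCGCC, GC-rich letters bound by Smads of the BMP branch, all searched on both strands.
Tgfbr2: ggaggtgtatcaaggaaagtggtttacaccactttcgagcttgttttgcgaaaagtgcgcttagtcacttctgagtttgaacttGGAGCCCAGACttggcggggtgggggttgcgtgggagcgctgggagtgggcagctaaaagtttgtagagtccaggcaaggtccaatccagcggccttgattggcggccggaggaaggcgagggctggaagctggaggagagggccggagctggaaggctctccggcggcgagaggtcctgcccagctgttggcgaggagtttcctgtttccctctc
GGAGCC and CAGAC stand side by side, without overlap, with their first bases 166 and 160 bases before the start. Among 32851 RefSeq promoters of this length, 49.6% hold CAGAC, 30.8% hold GGAGCC and 11.9% hold GGCGCC. Promoters were found for 26 of the 38 members, 31 windows in all, of which 13 hold CAGAC, 17 GGAGCC and 10 GGCGCC. The windows of Inhbb, Smad3 and Smad1 hold none of these letters, which says nothing of other sites. A match is a description of sequence and not of binding.

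The BMP and activin receptors did not pass. Bmpr1a, the main type I BMP receptor of skin epithelium, averaged 41.3 ± 1.55 FPKM in knockout-labelled and 38.8 ± 0.505 FPKM in control libraries (SD, n = 3 each; 0.09 ± 0.06, limma adjusted p = 0.317). Acvr1, another type I receptor of BMPs, was at 13.8, 12.4 and 11.9 FPKM against 11.7, 10.9 and 10.5 FPKM in controls, with groups that did not overlap (0.19 ± 0.08, limma adjusted p = 0.12). Bmpr2 and Bmpr1b differed by 0.07 ± 0.12 and 0.14 ± 0.13 (limma adjusted p = 0.68 and 0.461).

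Acvr1b, the type I activin receptor ALK4, had 35.7, 34.9 and 34.8 FPKM in knockout-labelled libraries, against 43, 40 and 36.7 FPKM in controls 261, 262 and 264. All knockout-labelled values were below all controls, and the difference of -0.18 ± 0.07 did not pass (limma adjusted p = 0.123). It did without control 264 (-0.23, limma adjusted p = 0.0267) and with array weights (-0.27, 0.00387). The type II activin receptors Acvr2a and Acvr2b differed by -0.08 ± 0.08 and 0.00 ± 0.14, with overlapping groups.

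Among the antagonists only follistatin was abundant. Fst, which binds and blocks activins, averaged 42.7 ± 3.13 FPKM in knockout-labelled and 42.2 ± 1.61 FPKM in control libraries (SD, n = 3 each; 0.01 ± 0.07, limma adjusted p = 0.915). Nog, the BMP antagonist Noggin, was under the minimum at 0.584, 0.997 and 0.729 FPKM for libraries 263, 265 and 266, compared with 0.325, 0.295 and 0.135 FPKM in controls 261, 262 and 264. The groups did not overlap, and without the minimum level the difference was 0.50 ± 0.11 (limma adjusted p = 0.0479). Grem1, the BMP antagonist Gremlin, was at most 0.0167 FPKM in any library.

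**Figure D2:**
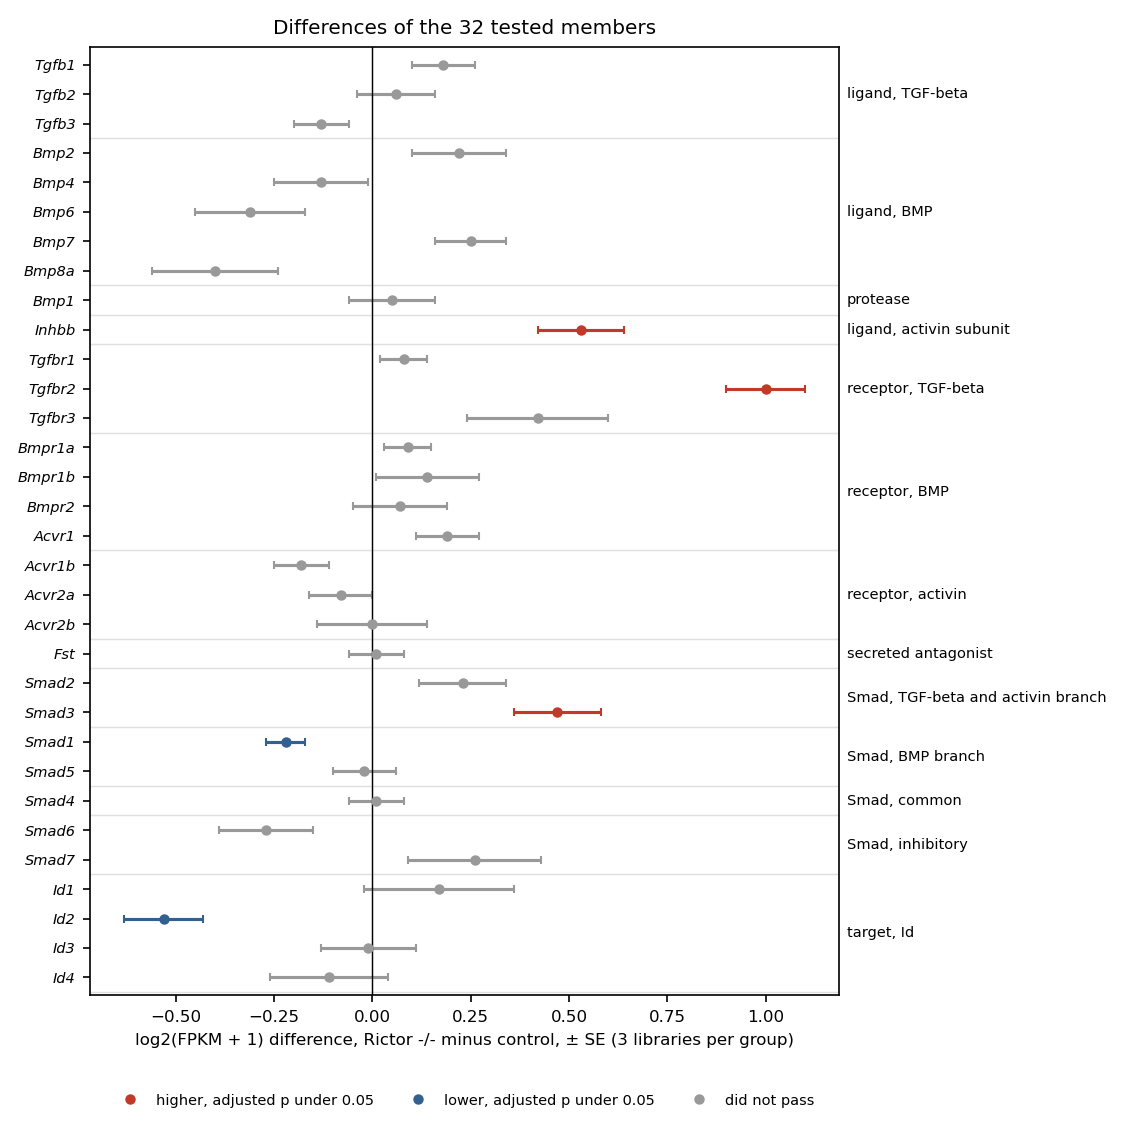
Difference in log2(FPKM + 1), Rictor -/- minus control, with its standard error (3 libraries per group), for the 32 tested members in order of role. Tgfbr2, Inhbb and Smad3 in red rose, Smad1 and Id2 in blue fell, and the grey members did not pass at an adjusted p of 0.05.

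One Smad of each branch passed, in opposite directions. Smad3, a transcription factor of the TGF-beta and activin branch, stood at 18.1, 22.7 and 18.3 FPKM for libraries 263, 265 and 266, compared with 13.9, 15.1 and 12.8 FPKM in controls 261, 262 and 264. All knockout-labelled libraries were above all controls, with a mean 1.42-fold higher and a log2 difference of 0.47 ± 0.11 (limma adjusted p = 0.0236). The call was lost without the minimum level (limma adjusted p = 0.0574) and without control 261 or knockout-labelled 265 or 266 (0.067, 0.0522 and 0.0518). Smad2, its partner on the same branch, was at 25.2, 24.4 and 20.9 FPKM against 19.9, 17.5 and 22.6 FPKM in controls, with overlapping groups (0.23 ± 0.11, limma adjusted p = 0.186).

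Smad1, a transcription factor of the BMP branch, stood at 18.5, 17.7 and 17.9 FPKM for libraries 263, 265 and 266, compared with 20.9, 21.4 and 21.2 FPKM in controls 261, 262 and 264. The replicates of each group lay within 1 FPKM of each other, and the groups did not overlap. The log2 difference was small, -0.22 ± 0.05 (limma adjusted p = 0.0304). The call was lost after median scaling (-0.16, limma adjusted p = 0.0805), after trimmed mean scaling (0.0813) and without any single library other than control 264 (0.0764 to 0.114). The more abundant Smad5 of the same branch averaged 31.6 ± 1.6 FPKM in knockout-labelled and 32 ± 2.6 FPKM in control libraries (SD, n = 3 each), and Smad9 was at most 0.389 FPKM in any library.

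The ratio of Smad3 to Smad1, computed after the values were seen, was 0.98, 1.29 and 1.02 in 263, 265 and 266 and 0.666, 0.707 and 0.603 in the controls. It sets the Smad that rose against the one that fell, so its separation follows from those calls. Within branches, Smad3 to Smad2 was 0.718, 0.931 and 0.874 against 0.699, 0.863 and 0.564 in controls, with overlap. Smad1 to Smad5 was 0.602, 0.577 and 0.534 against 0.605, 0.664 and 0.722 in controls, just apart. Smad4, the partner shared by both branches, differed by 0.01 ± 0.07 (limma adjusted p = 0.957). The inhibitory Smads were low, with Smad6 at 4.13, 3.62 and 3.18 FPKM against 5.4, 4.12 and 4.36 FPKM in controls and Smad7 at 6.28, 7.6 and 6.87 FPKM against 7.62, 4.47 and 5.06 FPKM. Both had overlapping groups, and neither passed (-0.27 ± 0.12 and 0.26 ± 0.17, limma adjusted p = 0.139 and 0.304). Smad7 passed without control 261 (0.46, limma adjusted p = 0.0432), and Smad6 passed with array weights (-0.45, 0.0114), under which Smad7 turned to -0.06.

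**Figure D3:**
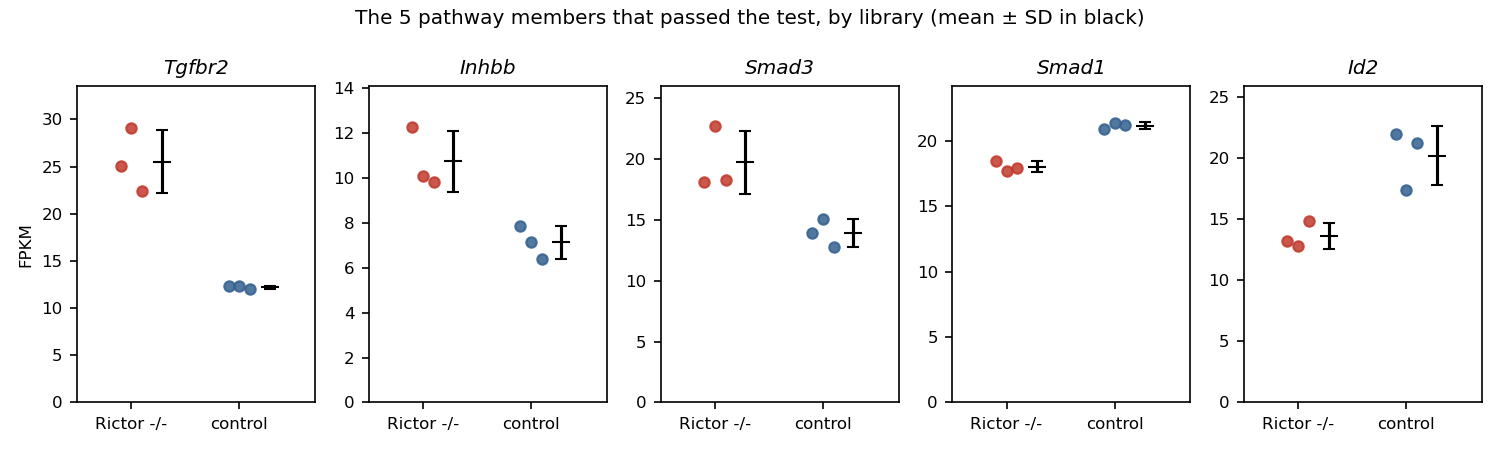
FPKM of the 5 members that passed, in each Rictor -/- library (red, left) and control library (blue, right), with mean ± SD in black and axes from 0. No panel has overlapping groups. The spread within a group is widest for Tgfbr2 and Smad3 in Rictor -/- libraries.

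The Id genes encode inhibitors of basic helix-loop-helix factors and are widely used as readouts of BMP signalling. Id2 stood at 13.2, 12.8 and 14.8 FPKM for libraries 263, 265 and 266, compared with 21.9, 17.4 and 21.2 FPKM in controls 261, 262 and 264. Every knockout-labelled library lay below every control, and the difference of -0.53 ± 0.10 passed limma's test (adjusted p = 0.0142). Without 263 or 265 it missed the threshold (-0.51 and -0.49, limma adjusted p = 0.056 and 0.0522). Id1 was the most abundant of the family in every library but control 262, at 75.5, 65.8 and 55.7 FPKM against 60.1, 44.7 and 72.2 FPKM in controls, with wide spread and overlap (0.17 ± 0.19, limma adjusted p = 0.545). Id3 averaged 53.3 ± 2.38 FPKM in knockout-labelled and 53.9 ± 8.97 FPKM in control libraries, and Id4 18.6 ± 3.48 and 20.1 ± 3.2 FPKM (SD, n = 3 each). Their differences of -0.01 ± 0.12 and -0.11 ± 0.15 did not pass, and that of Id3 was 0.06 after median scaling. Id2 made up 8.16%, 8.22% and 10.8% of the summed FPKM of the family in 263, 265 and 266 and 14.3%, 13.8% and 11.8% in the controls.

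Promoters of Id2, which fell, and of Id3 and Id4, which did not pass, are set side by side to show which Smad letters each holds. They cover 250 bases before and 50 after the RefSeq start in GRCm38.p6, at chr12:25096043-25096342 on the minus strand, chr4:136143572-136143871 on the plus strand and chr13:48260866-48261165 on the plus strand, with the same letters in capitals.
Id2: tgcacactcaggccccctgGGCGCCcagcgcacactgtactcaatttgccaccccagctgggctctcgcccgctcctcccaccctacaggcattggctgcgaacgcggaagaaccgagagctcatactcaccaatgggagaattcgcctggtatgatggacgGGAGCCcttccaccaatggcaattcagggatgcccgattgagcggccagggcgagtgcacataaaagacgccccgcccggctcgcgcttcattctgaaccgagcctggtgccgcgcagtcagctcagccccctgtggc
Id3: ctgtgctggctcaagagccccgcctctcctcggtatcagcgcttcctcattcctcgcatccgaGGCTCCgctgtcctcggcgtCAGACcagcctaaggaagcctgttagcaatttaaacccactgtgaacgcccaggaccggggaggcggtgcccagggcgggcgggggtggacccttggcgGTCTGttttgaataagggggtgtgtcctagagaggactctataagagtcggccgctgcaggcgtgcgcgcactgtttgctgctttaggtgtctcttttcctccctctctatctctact
Id4: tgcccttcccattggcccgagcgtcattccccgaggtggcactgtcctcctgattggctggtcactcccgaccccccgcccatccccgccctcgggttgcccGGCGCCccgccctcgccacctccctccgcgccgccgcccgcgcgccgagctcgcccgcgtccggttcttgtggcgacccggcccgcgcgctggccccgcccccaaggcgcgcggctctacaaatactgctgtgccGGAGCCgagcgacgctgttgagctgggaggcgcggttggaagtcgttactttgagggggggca
Id2 and Id4 each hold 1 GGCGCC and 1 GGAGCC, and Id3 holds 1 GGAGCC, read as GGCTCC on the other strand, and 2 CAGAC boxes. Id2, which fell, and Id4, whose groups overlapped, hold the same set of letters. The part of these letters in the level of either gene was not tested. No promoter was found for Id1.

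Other genes of the pathway, outside the 38, were described from 8 lists with 162 matched genes, of which 108 were tested. In these lists 17 genes rose and 10 fell, 15.7% and 9.26% of those tested, against 7.91% and 15.6% of all genes. Of the 17 that rose, 12 were in the list of TGF-beta target genes, which had 24 tested genes. Those 12 include Timp1 and Acta2, tested only because of their level in the knockout-labelled libraries. In each of the other lists the share that rose lay between 0% and 14.3%. The median log2 difference of the lists together was 0.04. Each list below has few tested members, and the counts are given as a description.

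Around the ligands, Itgb6 and Thbs1 rose among 14 tested genes of latency and activation (14.3%, against 7.91% of all tested genes). Itgb6, a subunit of the epithelial integrin that activates latent TGF-beta, stood at 4.74, 4.36 and 4.27 FPKM for libraries 263, 265 and 266, compared with 2.42, 3.07 and 3.15 FPKM in controls (0.50 ± 0.10, limma adjusted p = 0.0158). Thbs1, thrombospondin 1, which can also activate latent TGF-beta, stood at 42.1, 52.2 and 41.9 FPKM against 31.2, 27.2 and 19.2 FPKM in controls (0.81 ± 0.18, limma adjusted p = 0.022). Neither gene had overlapping groups. Both calls were lost without the minimum level (limma adjusted p = 0.05 and 0.0612) and without 263 (0.0638 and 0.0577), and that of Thbs1 also without 265 or 266 (0.0717 and 0.0549). Of the other ligands only Lefty1 and Inha were tested, and neither passed (-0.87 ± 0.28 and -0.18 ± 0.14, limma adjusted p = 0.069 and 0.392). Lefty1, a Nodal antagonist, was at 1.1, 1.21 and 1.16 FPKM in knockout-labelled libraries and 1.61, 2.81 and 5.13 FPKM in controls, which spread widely.

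Among coreceptors and secreted inhibitors 3 genes fell. The share that fell was 33.3% of tested receptors and coreceptors and 12.5% of tested secreted inhibitors, against 15.6% of all tested genes. Nbl1, a secreted BMP antagonist also called DAN, fell to 29.9, 35.5 and 32.8 FPKM for libraries 263, 265 and 266, compared with 52.5, 52.1 and 53.2 FPKM in controls (-0.67 ± 0.08, limma adjusted p = 0.00319), the 1 gene that fell among 8 tested secreted inhibitors. Rgmb, a BMP coreceptor, fell to 20.5, 24.8 and 21.7 FPKM against 29.9, 31.2 and 30.9 FPKM in controls (-0.45 ± 0.08, limma adjusted p = 0.0111). Bambi, a decoy receptor without kinase activity, fell to 4.51, 4.66 and 4.17 FPKM against 6.34, 5.44 and 7.05 FPKM in controls (-0.41 ± 0.10, limma adjusted p = 0.027). Rgmb and Bambi were the 2 genes that fell among 6 tested receptors and coreceptors, and the call of Bambi was lost without the minimum level (limma adjusted p = 0.0706) and without 261, 263, 265 or 266 (0.0625 to 0.0935).

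Inside the cell, 2 of 33 tested regulators rose (6.06%) and 0 fell, against 7.91% and 15.6% of all tested genes. Smurf1, a ubiquitin ligase that targets BMP Smads and receptors, was at 18.7 ± 0.43 FPKM in knockout-labelled and 14.2 ± 1.43 FPKM in control libraries (SD, n = 3 each; 0.38 ± 0.08, limma adjusted p = 0.0194). Pmepa1, a TGF-beta-induced inhibitor of Smad signalling, was at 15.6 ± 2.47 and 10.9 ± 1.10 FPKM (0.48 ± 0.12, limma adjusted p = 0.0362). The call of Pmepa1 was lost without the minimum level (limma adjusted p = 0.0852) and without any single library other than 265 (0.0536 to 0.105), and that of Smurf1 without 262, 263, 265 or 266 (0.0503 to 0.0689). Of 11 tested DNA-binding partners 1 rose (9.09%) and 0 fell, against the same shares of all tested genes. It was the repressor E2f4, at 40.8 ± 0.417 FPKM in knockout-labelled and 30.8 ± 1.43 FPKM in control libraries (0.40 ± 0.06, limma adjusted p = 0.00691).

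Known TGF-beta target genes had the largest share of calls among the 8 lists. All lists were chosen with earlier results of these data known, so this share is only a description. Of 24 tested genes 12 rose and 4 fell, 50% and 16.7%, with a median log2 difference of 0.35, against 7.91% and 15.6% and a median of -0.06 over all tested genes. Among these, Timp1 and Acta2 were tested only because of their level in the knockout-labelled libraries. Over the 22 genes that reached 1 FPKM in both groups 10 rose and 4 fell, 45.5% and 18.2%, with a median of 0.21. Ccn1, a secreted matricellular protein, stood at 73.2, 81.3 and 58.1 FPKM for libraries 263, 265 and 266, compared with 22.5, 19.4 and 25.8 FPKM in controls (1.60 ± 0.15, limma adjusted p = 0.00221). Tnc, the matrix protein tenascin C, stood at 95.5, 126 and 91 FPKM against 40.3, 30.8 and 33.7 FPKM in controls (1.54 ± 0.15, limma adjusted p = 0.00231). In both genes the lowest knockout-labelled library had more than any control by a wide margin. Itga5, a fibronectin receptor subunit, and Klf10, a TGF-beta early response factor, rose by 0.72 ± 0.08 and 0.50 ± 0.08 (limma adjusted p = 0.00342 and 0.00765).

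Other members of this list are named after their values were seen. Plaur, the urokinase receptor, and the AP-1 subunit Junb rose by 0.94 ± 0.16 and 0.57 ± 0.10 (limma adjusted p = 0.00993 and 0.0113). The 4 genes that fell were Cdkn2b (-0.75 ± 0.14), the cell cycle inhibitor p15, Angptl4 (-0.74 ± 0.15), a lipoprotein lipase inhibitor, the integrin subunit Itgb5 (-0.31 ± 0.07) and Tgfbi (-0.29 ± 0.07), a matrix protein named for its induction by TGF-beta. Their limma adjusted p-values were 0.0112, 0.0174, 0.022 and 0.0305. The calls of Itgb5 and Tgfbi were lost without any single library other than control 264 (0.0565 to 0.0873 and 0.0521 to 0.0955), and that of Itgb5 also after median scaling (0.0601). That of Angptl4 was lost without the minimum level (0.0513) and without 265 or 266 (0.0538 and 0.0587). Ccn2, also known as connective tissue growth factor, differed by 0.01 ± 0.19 (limma adjusted p = 0.97). Fn1, the matrix protein fibronectin, was listed at 0 in 263 but had 64.4 FPKM in 265 and 58 FPKM in 266, while controls had 54.2, 54.9 and 41.9 FPKM, so its difference cannot be read.

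**Figure D4:**
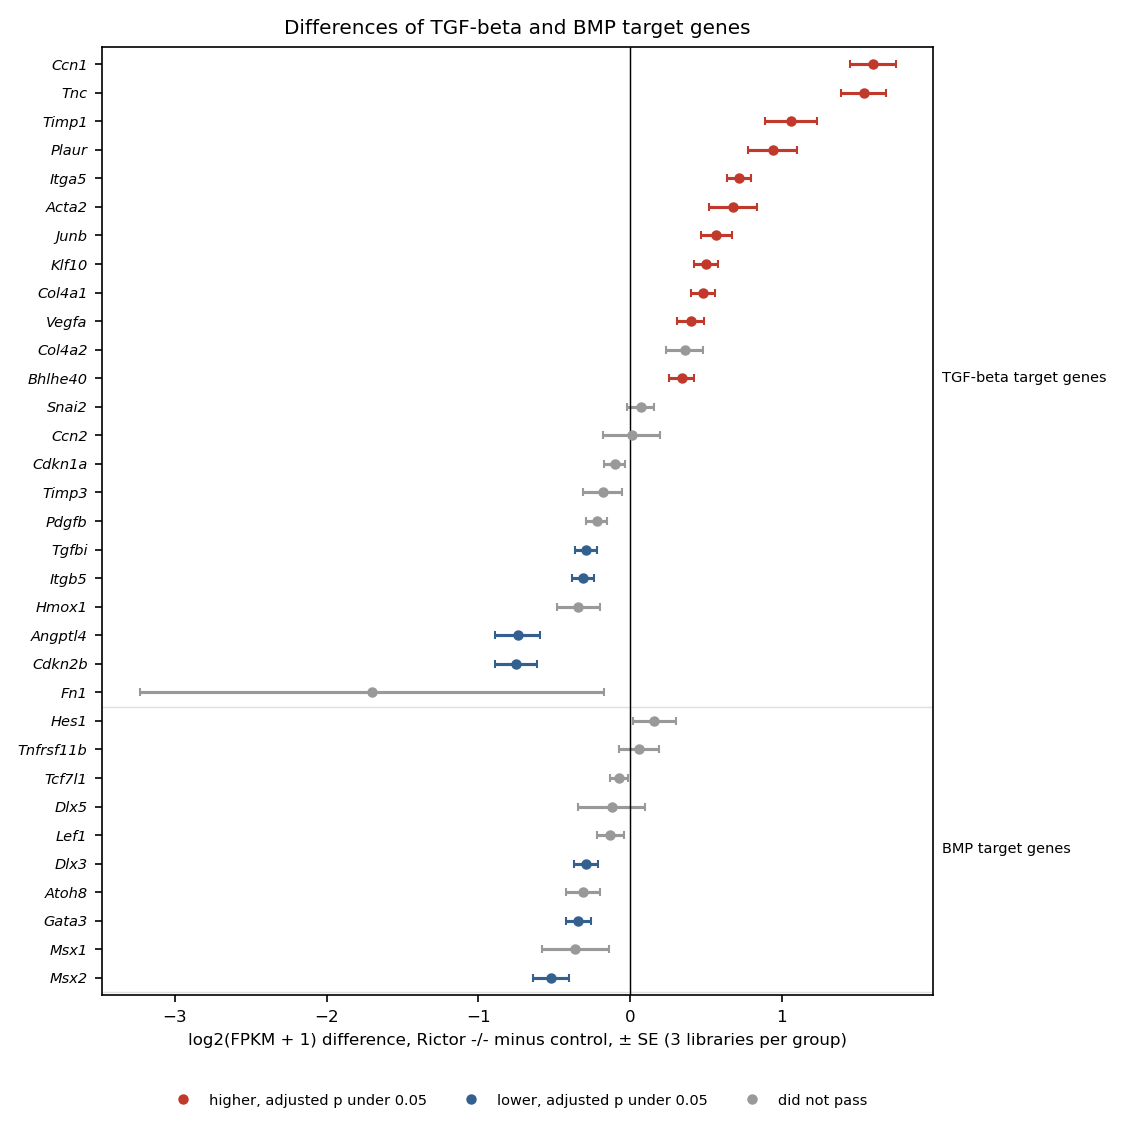
Difference in log2(FPKM + 1), Rictor -/- minus control, with its standard error (3 libraries per group), for tested genes that TGF-beta or BMP induces, ordered within each list, with 1 of the 24 TGF-beta target genes not drawn. Ccn1 and Tnc lie farthest to the right, and the wide bar of Fn1 comes from a value listed at 0 in 1 Rictor -/- library.

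Known BMP target genes, apart from the Id genes, showed 3 falls among 10 tested (30%), with a median log2 difference of -0.21, against 15.6% lower and a median of -0.06 over all tested genes. Gata3, a transcription factor of epidermis and inner root sheath, stood at 43.5, 47.6 and 47.3 FPKM in knockout-labelled libraries and 61, 61.7 and 53.6 FPKM in controls (-0.34 ± 0.08, limma adjusted p = 0.0249). Msx2, a homeobox factor of the hair matrix, stood at 19.2, 16.6 and 15.9 FPKM against 25.2, 21.5 and 28.9 FPKM in controls (-0.52 ± 0.12, limma adjusted p = 0.0259). Dlx3, a homeobox factor of differentiating epidermis and hair, stood at 73.2, 69.4 and 69.6 FPKM against 94.4, 80.9 and 84.5 FPKM in controls (-0.29 ± 0.08, limma adjusted p = 0.0378). The calls of Gata3 and Dlx3 were lost after median scaling (limma adjusted p = 0.0697 and 0.0724). Those of Msx2 and Dlx3 were lost without the minimum level (limma adjusted p = 0.064 and 0.0609). Without single libraries Gata3 was lost for 5 of 6 (all but 264, 0.0599 to 0.0925), Dlx3 for 261, 263, 265 and 266 (0.0898 to 0.125) and Msx2 for 261, 265 and 266 (0.0727 to 0.0881).

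**Figure D5:**
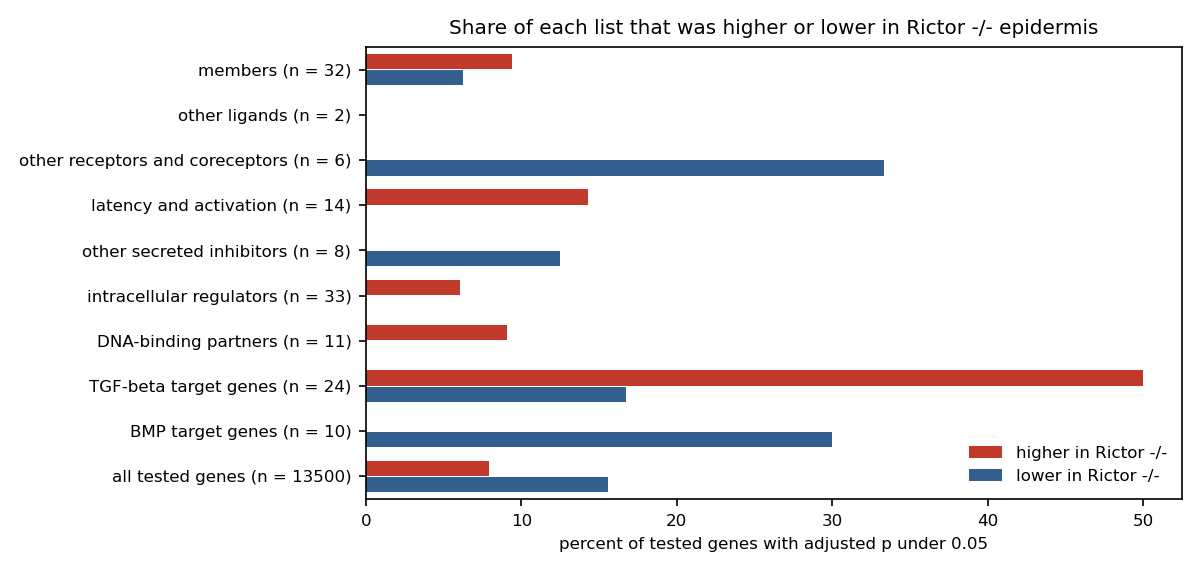
Percent of the tested genes of each list that passed at an adjusted p of 0.05, higher (red) or lower (blue) in Rictor -/- libraries, with the number tested in parentheses. The lists were chosen with earlier results of these data known. All tested genes stand in the last row, at 7.91% higher and 15.6% lower, and the list of TGF-beta target genes has the longest red bar, at 50%, which counts 2 genes tested only because of their level in Rictor -/- libraries.

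Some markers of keratinocytes and of other cells also differed between the groups. Over all tested genes 7.91% rose and 15.6% fell. Of 13 keratinocyte markers 4 rose (30.8%), namely Krt14, Sfn, Dsg3 and Krt5, with means 2.3, 2.27, 2.07 and 1.48 times those of controls. The other keratinocyte markers went both ways and did not pass. They were Lor (-0.34), Flg (-0.30), Perp (-0.30), Krt10 (-0.18), Dsc3 (-0.00), Krt1 (0.00), Trp63 (0.10), Ivl (0.20) and Dsp (0.30). Of 14 tested hair follicle markers 10 fell (71.4%, median -0.80). The summed level of all 14 was 1238 to 1415 FPKM in knockout-labelled and 1977 to 2451 FPKM in control libraries. Those that did not pass were Tchh (-0.44), Shh (0.04), Sox9 (0.02) and Lhx2 (-0.02). Of 12 tested dermal fibroblast markers 6 rose (50%, median 0.51), with sums of 450 to 499 FPKM in knockout-labelled and 357 to 396 FPKM in control libraries. Vim, which other cells also express, made up 252, 254 and 267 FPKM of this in 263, 265 and 266 and 190, 189 and 189 FPKM in the controls. The other 5 that rose were collagen genes. Col6a1 had 7.41, 10.4 and 9.94 FPKM in 263, 265 and 266 and 2.74, 2.62 and 3.3 FPKM in the controls, a ratio of means of 3.21. The ratios of Col6a2, Col1a1, Col1a2 and Col5a1 were 2.52, 2.12, 1.56 and 1.55. Postn averaged 104 FPKM in knockout-labelled and 109 FPKM in control libraries, and Fbln1 44 and 40.5 FPKM. Postn, Fbln1 and Col3a1 did not pass (-0.06, 0.12 and 0.86, limma adjusted p = 0.752, 0.227 and 0.0708). Col6a3, Dpt and Mfap5 did not pass either, and were tested only because of their level in knockout-labelled libraries. Of the 9 fibroblast markers that reached 1 FPKM in both groups 6 rose. The fibroblast receptors Pdgfra and Pdgfrb were at most 0.326 and 0.109 FPKM in any library. Of 13 tested myeloid markers 10 fell (76.9%), with sums of 106 to 124 FPKM in knockout-labelled and 184 to 234 FPKM in control libraries. Of 9 tested sebaceous gland markers 8 fell (88.9%), and of 9 melanocyte markers 5 (55.6%). The melanocyte markers that did not pass were Tyrp1 (-0.29), Mitf (-0.20), Sox10 (-0.09) and Kit (0.05). Of the T cell markers Cd3e, Tcrg-C1 and Il2rb were tested only because of their level in controls, and of the 2 that reached 1 FPKM in both groups Cd3g fell and Thy1 rose. Of 2 tested dermal papilla markers 1 rose, and muscle and nerve markers summed to at most 12.3 FPKM. The part of these cells in the differences of Id2, Msx2, Gata3, Tgfbr2 or the matrix genes was not tested.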

How the data were processed

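RNA of separated epidermis was sequenced in 3 Rictor -/- and 3 control libraries, grouped by the genotype label. The authors deposited 1 table of FPKM, 1 column per library, per the file headers. CASAVA, Cufflinks and GRCm38 are named in the submitters' processing notes, without versions. The aligner, annotation and strandedness were not given in the sources used here, so reads of antisense neighbours cannot be told apart.

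The table held 49452 rows, of which 49195 matched GENCODE M21 and 22449 were at 0 throughout. For repeated symbols only the highest by mean was used, leaving out 75. Genes averaging 1 FPKM or more in one group or both were fitted as log2(FPKM + 1) with limma 3.58.1 (R 4.3.3, trend), Rictor -/- minus control, with Benjamini-Hochberg adjustment and a threshold of 0.05. Differences are on that scale, which understates changes of low genes. The fit was tested on simulated data. The members and lists were chosen with earlier results of these data known.

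All members are accounted for. Of each pathway list the 4 called genes with the smallest p are named, or the 2 tested genes with the smallest p where none was called, and any other gene was chosen after its values were seen. Alternatives changed the pseudocount, minimum, scaling, length and GC adjustment, trend, array weights, threshold and libraries. FPKM are not counts, so no counting intervals are given and a value listed at 0 can be a failed estimate. Promoters came from RefSeq (GRCm38.p6). One TGF-beta target gene stays in the counts but is not reported here by name.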

Additional observations from a re-analysis of the deposited data

How the results depend on the processing

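No paired analysis was possible because every library carries its own number and the groups share none. Over 18 alternatives Tgfbr2 and Inhbb stayed past the threshold in all, Id2 in 16, Smad3 in 14 and Smad1 in 11, each with its direction kept. These tallies include the looser threshold of 0.10, which could not undo a call. Leaving out 1 library at a time gave 0 to 3 members called lower (2 with all), 10 to 22 other pathway genes called higher (17) and 3 to 15 lower (10), 1 to 4 TGF-beta target genes called lower (4), 0 to 4 BMP target genes called lower (3) and 1462 to 3784 genes called in all (3169). With array weights these counts were 7, 28, 25, 5, 6 and 6272. Median and trimmed mean scaling each called 1 member and 1 BMP target gene lower, and quantile normalization and the length and GC adjustment each 1 BMP target gene. At an adjusted p of 0.10, 17 other pathway genes were lower. The cause was not tested.

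Members that turned direction had all missed the threshold. With array weights Bmpr1b was -0.05, Bmpr2 -0.03 and Smad7 -0.06. Median and trimmed mean scaling gave Id3 0.06 and Smad5 0.05, and quantile normalization 0.03 and 0.01, while the length and GC adjustment gave Id3 0.14. Leaving out 1 library at a time gave both signs for Acvr2b (-0.16 to 0.11), Bmp1 (-0.01 to 0.13), Bmpr2 (-0.05 to 0.14), Fst (-0.05 to 0.04), Id1 (-0.02 to 0.32), Id3 (-0.13 to 0.11), Id4 (-0.25 to 0.01), Smad4 (-0.04 to 0.05), Smad5 (-0.08 to 0.04) and Tgfb2 (-0.05 to 0.12). With 3 libraries per group and no deposited counts, a missed threshold does not show that levels were equal.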
